A study of Mus musculus with 4 samples.

Results

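Epiblast-like aggregates (ELA) that formed in the presence of CHQ were compared with untreated ELA of the same day, across all genes of a single-colour expression array. CHQ stands for 5-carboxy-8-hydroxyquinoline, a small molecule used here as an inhibitor of histone lysine demethylases. Both groups came from the mouse embryonic stem (ES) cell line E14Tg2A, which derives from the 129/Ola strain. The ELA were kept for 2 days in minimal medium with N2 and B27 supplements and without leukemia inhibitory factor (LIF), and the treated ELA received 100 µM CHQ over that time. The series holds 4 arrays, with 1 array per group. Besides the 2 compared here, they are untreated ES cells of day 0 and day 2 ELA given 50 nM 5-azacytidine, or AZA, which blocks DNA methyltransferases, and these serve below as reference levels. The RNA of 3 experiments was pooled for each array. With no replicate within a group, no test between groups was possible. A gene entered the comparison when the scanner software marked its probe as well above background on at least 1 of the 2 arrays, which 26924 of 35856 genes on the array did.

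Most histone lysine demethylases belong to the JmjC family, which are oxygenases that need iron and 2-oxoglutarate and use molecular oxygen to remove methyl groups. The hydroxylases that mark the hypoxia-inducible factor (HIF) for degradation and the TET enzymes that oxidise methylated cytosine use the same cofactors, and 8-hydroxyquinolines bind metal ions such as iron. In ES cells that leave the ground state, genes of naive pluripotency are turned down and genes of the post-implantation epiblast are turned up within days of LIF withdrawal.

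The CHQ and AZA arrays lay on one slide and the ES and ELA control arrays on another, so that slide and treatment cannot be told apart in CHQ minus ELA. On the CHQ array 69.2% of gene spots were well above background and on the ELA control array 55.1%, with a local background of 13 and 77 intensity units at the median. Repeated spots of the same probe gave a spread of 0.222 (log2) for a difference between these 2 arrays, which covers spotting and reading and no biological variation. Of the 9 reference transcripts listed for the check of scale, 0 were called, beside 26.6% of all genes that could be called. Their median difference was -0.04, with members from -0.27 to 0.65. It was -0.13 after scaling to the 75th percentile and -0.235 after scaling to spike-in probes, so the scale remains uncertain by that much. The labelled states were visible in the markers of the study, since Fgf5, a growth factor of the primed epiblast, read 11.61 in ES cells and 14.47 in ELA and Klf4, a factor of naive pluripotency, read 12.54 and 9.50. No value on these arrays measures demethylase activity or histone marks.

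A gene was called when its normalised log2 intensity differed by at least 1 between the 2 arrays, with a mean of both arrays of at least 7.5. Of 19097 genes that could be called, 5086 (26.6%) were, and 2818 (14.8%) were higher and 2268 (11.9%) lower with CHQ. Counts in the gene lists below are out of measured members, and some of those could not be called. The shares of 14.8% and 11.9% therefore stand beside them as a rough guide. Large rises were more numerous than large falls. A difference of at least 2 was seen for 1058 genes higher and 338 lower, of at least 3 for 442 and 61, and of at least 4 for 149 and 14. The middle of the distribution stayed near 0, with quartiles of -0.59 and 0.53 around a median of -0.09. The balance of both directions depended on scaling, because the share of higher genes among those called was 55.4% here, 41.9% after scaling to the 75th percentile (2311 higher and 3199 lower) and 32.8% after scaling to spike-in probes (2051 higher and 4203 lower), with the median at -0.26 and -0.40. All directions below are therefore to be read against the bulk of transcripts. Of the rises, 392 rest on a probe that was well above background on the CHQ array only, against 10 falls with a probe bright on the ELA array only.

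**Figure D1:**
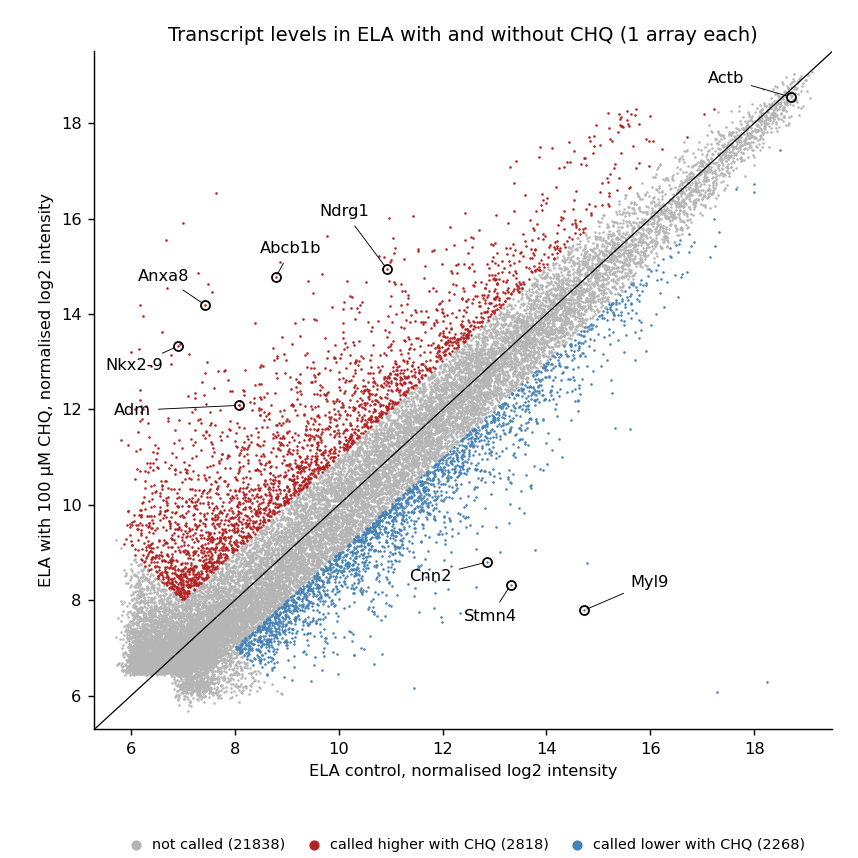
Normalised log2 intensity of 26924 measured genes in the ELA control (x axis) and in ELA with 100 µM CHQ (y axis), 1 array each, with the line of equal levels. Red points are the 2818 genes called higher and blue points the 2268 called lower, and the circled genes show Nkx2-9, Abcb1b, Anxa8, Ndrg1 and Adm far above the line, Cnn2, Stmn4 and Myl9 far below it and Actb on it.

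The genes that mark the comparison were read first, each through 1 measured probe (coordinates are those of the array's design in build mm9). Nkx2-9, a homeobox transcription factor that responds to hedgehog signals in the ventral neural tube, had a log2 intensity of 9.36 in ES cells, 6.90 in ELA, 12.37 with AZA and 13.32 with CHQ (chr12:57712410-57712469), a CHQ over ELA ratio of 85.6. The ELA control array was the lowest and both treated arrays exceeded ES cells. Its ELA value lay near the lowest signal well above background on that array (6.74), so the ratio is imprecise. The log2 difference of 6.42 ran from 5.83 to 7.31 over all settings. Abcb1b, an efflux pump that exports many drugs, read 11.82, 8.79, 13.62 and 14.77 in the same order (chr5:8865925-8865984), a ratio of 63.1. Adm, the vessel-widening peptide adrenomedullin and a known HIF target, read 7.89, 8.08, 10.81 and 12.09 (chr7:117773088-117773147), a ratio of 16.1. For Adm the 2 untreated arrays were alike and low, and CHQ was the highest. Myl9, a regulatory light chain of non-muscle and smooth muscle myosin, ran the other way, with 15.06 in ES cells, 14.72 in ELA, 10.60 with AZA and 7.79 with CHQ (chr2:156607301-156607360), so that ELA exceeded CHQ 121.7-fold. Between the treated arrays, which share a slide, CHQ minus AZA was 0.95 for Nkx2-9, 1.15 for Abcb1b, 1.28 for Adm and -2.82 for Myl9.

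Of 19 measured Nkx2, Nkx6 and hedgehog pathway genes, Nkx2-9 included, 3 were called higher and 4 lower, beside 14.8% and 11.9% over all genes that could be called, and the median difference was 0.05, beside -0.03 over all measured genes. Dhh, a hedgehog ligand, rose by 2.41 and Nkx6-2, dim in the ELA control, was at least 2.73-fold higher. Smo, the signal transducer of the pathway, fell by 1.79 with -0.83 at its second probe, and Nkx2-6 and Nkx6-1 fell by 1.48 and 1.06. Foxa2 fell by 1.01, with -0.39 at its second probe (dim in ELA), and was not called with the mean over all probes (-0.70). Gli1 and Ptch1, which the pathway itself induces, differed by -0.49 and -0.76 and were not called. Nkx2-2 differed by 0.03, and Nkx2-4 and Pax9 were not called.

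Most HIF targets were called higher with CHQ. All 30 listed genes were measured, and 19 were called higher and 0 lower, beside 14.8% and 11.9% over all genes that could be called. The median difference was 1.45 (1.12 to 1.54 over all settings). Ndrg1, a stress-responsive gene induced at low oxygen, read 11.13 in ES cells, 10.93 in ELA, 13.90 with AZA and 14.95 with CHQ, which is 16.2-fold above ELA. Car12, a membrane carbonic anhydrase, read 9.85, 8.77, 11.44 and 12.34, an 11.9-fold difference. As with Adm, both treated arrays were above both untreated ones, and CHQ was the highest. Ddit4, an inhibitor of the growth kinase mTOR, was already bright in ELA at 15.19 and reached 18.22 with CHQ. Vegfa, the growth factor of blood vessels, rose by 2.36 with 1.20 at its second probe, Stc2, a secreted stress glycoprotein, by 2.17, Ero1a, an oxidase of protein folding, by 2.14 and Bnip3, a receptor for removal of mitochondria, by 1.81. Over the same genes AZA minus ELA had a median of 1.44 and CHQ minus AZA one of 0.18, so the level of the group was similar on both treated arrays. The comparisons with ELA share the control array.

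The exceptions lay at defined members. Car9, another membrane carbonic anhydrase and a gene with a strong HIF response in many cells, read 7.17 in ES cells, 6.96 in ELA, 10.80 with AZA and 7.15 with CHQ. It was thus high on the AZA array alone, with a CHQ minus AZA difference of -3.65. Of the glucose handling genes in the list, Pfkfb3, which makes an activator of glycolysis, rose by 1.37 with 0.59 at its second probe. Slc2a1, Slc2a3, Hk2, Pdk1 and Pfkfb4 differed by 0.47, 0.93, 0.93, 0.41 and 0.76 and were not called. Bnip3l, Higd1a and Egln1 were not called either, at 0.10, 0.20 and -0.32. The separate list of glycolytic enzymes had 2 called higher and 0 lower of 15, beside 14.8% and 11.9% of genes that could be called. Its median of 0.14 turned to -0.63 at the 75th percentile and -0.74 with the spike-in probes. Gpi1 rose by 1.07 at the brightest of 3 probes that cover nearly the same sequence, but by 0.22 at the 75th percentile and 0.12 with spike-in scaling, which ends the call, while the rise of Pfkp by 1.95 was not seen at its second probe (-0.50). Pgk1, Aldoa and Ldha differed by 0.53, 0.38 and -0.08.

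HIF binds DNA at a short core, ACGTG, and the promoters of the HIF targets that rose were read for it in the RefSeq sequences of GRCm38.p6, from 250 bases before to 50 bases after each start. Of the 19 called genes, 17 had a promoter in that table, and in 12 (70.6%) the core was present on either strand upstream of the start. Over all measured targets of the list, called or not, it was present upstream in 18 of 26 (69.2%). Counted upstream in the same way, the core was found in 24.6% of the genes that could be called (2638 of 10708), 23.6% of genes called higher (398 of 1683) and 21.9% of genes called lower (253 of 1156). In the whole window these shares were 28.7%, 26.6% and 25.6%, and 19.6% over all promoters of the table. The listed targets were in part defined in the field by such elements, so their share is a description of the list. The stretches around the core are shown for 7 of the 12 genes as examples, 5′ to 3′ along the gene's strand, with the core in capitals (CACGT is the core on the opposite strand).
Ddit4 (chr10:59951941-59951969, minus strand): agaacgttgcgaACGTGcgcccggtgcct
Vegfa (chr17:46025358-46025386, minus strand): ggagtgcgtgccCACGTcagagagcaaca
P4ha2 (chr11:54100834-54100862, plus strand): tgtgcatcgcatACGTGcagcgcgtggcg
Ero1a (chr14:45318619-45318647, minus strand): cgcgcgccgctgCACGTccgcaggggagg
Bnip3 (chr7:138909597-138909625, minus strand): cgcacgcgccgcACGTGccacacgctccc
P4ha1 (chr10:59323268-59323295, plus strand): tgtgacagagcgCACGTagcgagggctg
Egln3 (chr12:54204087-54204115, minus strand): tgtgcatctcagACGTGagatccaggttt
These cores lie between 16 bases (P4ha1) and 229 bases (Egln3) before the start. Ndrg1, Adm and Car12, the top 3 of the list by difference, are not among the 12 genes. The cores of 3 other response elements were searched on both strands in the same windows. The antioxidant response core TGACNNNGC was present in 17.6% of promoters of genes called higher, 15.3% of genes called lower, 16.8% of genes that could be called and 12.4% of the table, and the aryl hydrocarbon receptor core GCGTG, which shares its last 4 letters with ACGTG, in 49.4%, 52.6%, 54.4% and 32.4%. The element TGATGNAA of ATF4 and C/EBP factors was present in 3.98%, 2.94%, 2.78% and 3.97%.

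The family that CHQ is meant to inhibit was measured nearly in full. Of 24 JmjC histone demethylases and relatives, 23 were measured, and the median difference was 0.55. Among them 6 were called higher and 0 lower, beside 14.8% and 11.9% of genes that could be called. Kdm3a, which demethylates lysine 9 of histone H3 and is itself a HIF target, read 14.23 in ES cells, 13.38 in ELA, 14.46 with AZA and 15.07 with CHQ, a rise of 1.69. The 2 untreated arrays were the lowest, and CHQ the highest. Hr rose by 1.66, Kdm4b by 1.17, Kdm4c by 1.098 and Kdm6b, a demethylase of lysine 27, by 1.07. Phf8 was called through its brightest probe at 1.03. Its other 3 probes read from -1.01 to 0.41 (the latter dim in ELA), and the mean over all its probes was -0.03. Each of the other 5 rests on 1 probe. With spike-in scaling Kdm4b, Kdm4c, Kdm6b and Phf8 differed by 0.87, 0.75, 0.86 and 0.78, so that of the 6 calls those of Kdm3a (1.19) and Hr (1.47) were kept there.

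The remaining 17 demethylases lay between -0.54 and 0.98. Kdm5b, which demethylates lysine 4 of histone H3, read 15.97 in ES cells, 16.11 in ELA, 16.55 with AZA and 16.94 with CHQ, and its 4 probes gave 0.07 to 0.83. Kdm2b gave 0.63 and -0.47 at its 2 probes. Uty, Kdm4a and Kdm2a differed by 0.98, 0.60 and 0.55, with -0.28, -0.23 (dim in ELA) and 0.70 at their second probes. Kdm8 differed by -0.15, and Kdm4d was dim in ELA and at least 1.30-fold higher. Kdm6a, Kdm5a, Jmjd1c, Jarid2 and Kdm5c differed by 0.26, 0.24, 0.31, 0.49 and 0.49, and Riox1, Kdm3b, Phf2, Kdm7a and Riox2 by -0.54, -0.42, -0.40, -0.34 and -0.34. The median of the family moved with the processing, to 0.26 with the mean over all probes and 0.09 with spike-in scaling, and to 0.49 when the member dim on the ELA array was set at its bound. In the complex of the flavin-dependent demethylase LSD1, 1 of 8 genes was called higher and 0 lower, beside 14.8% and 11.9% of genes that could be called. This was Phf21a with 1.32, whose other probes gave -0.20 and 0.34. That call ended with the mean over all probes (0.49), at the 75th percentile (0.98) and with spike-in scaling (0.92). Kdm1a, which codes for LSD1, differed by 0.38.

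Among 33 other measured 2-oxoglutarate oxygenases, 8 were called higher and 3 lower, beside 14.8% and 11.9% of genes that could be called. The median was -0.05. P3h2, 1 of the 8, was dim in ELA and entered through the CHQ array. The rises included enzymes that modify collagen. Plod2, a lysyl hydroxylase, read 10.21 in ES cells, 9.93 in ELA, 12.23 with AZA and 13.08 with CHQ, and the prolyl hydroxylase subunits P4ha2 and P4ha1 rose by 2.24 and 1.67, while Plod1 fell by 1.04 with -0.43 at its second probe, which ends the call with the mean over all probes (-0.73), and Plod3 differed by 0.01. Tet2, which oxidises methylated cytosine, read 12.07, 9.05, 11.68 and 11.55, so that ELA alone was low at this probe. A second probe gave 2.47, and the lowest of the 3, dim in ELA, gave 0.88 as measured. Tet1 rose by 1.61, and its relative Tet3 differed by -0.19. Of the HIF hydroxylases, Egln3 rose by 1.32, Egln1 and Egln2 differed by -0.32 and -0.56, and Hif1an, which blocks the activation domain of HIF, by -0.44. Jmjd4 fell by 1.57 and Tmlhe, the first enzyme of carnitine synthesis, by 1.92, although the second probe of Tmlhe, dim in ELA, gave 0.56. With the mean over all probes Tmlhe differed by -0.68, which ends its call.

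**Figure D2:**
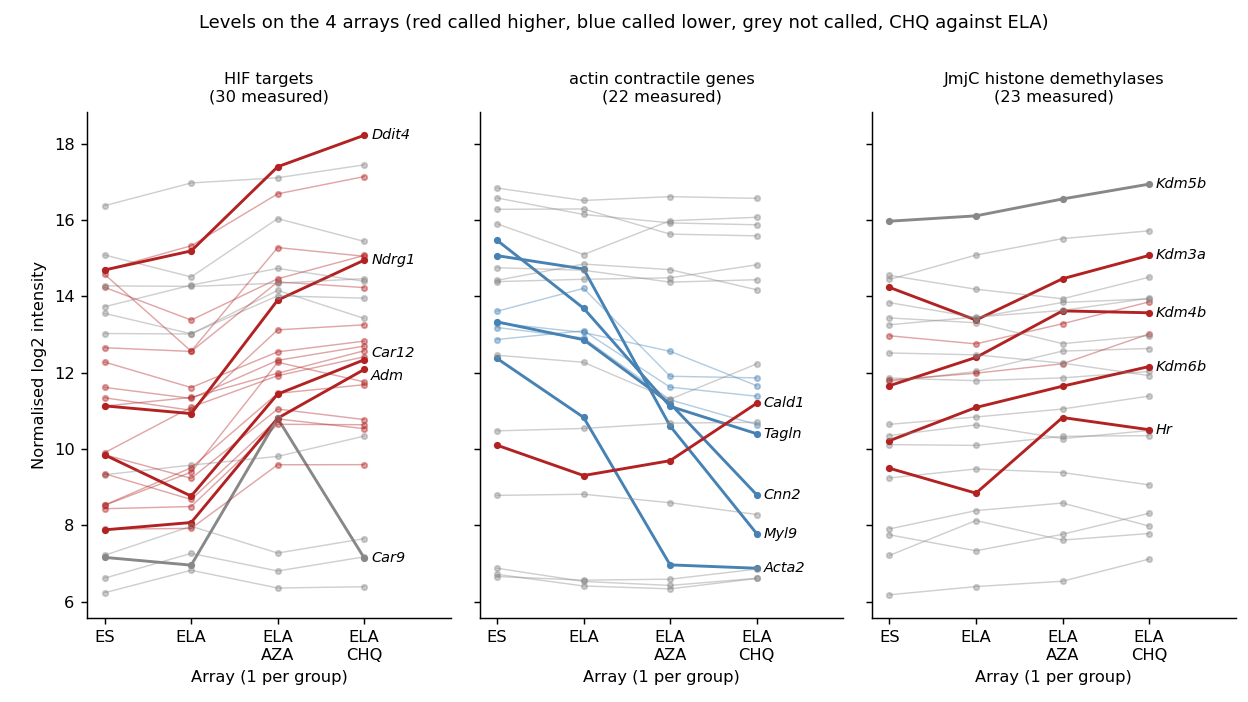
Normalised log2 intensity (y axis) on the 4 arrays (x axis, 1 array per group) for the measured HIF targets (30), actin contractile genes (22) and JmjC histone demethylases (23). Each line is a gene, coloured red, blue or grey for called higher, called lower or not called with CHQ against ELA. The 19 called HIF targets are higher with CHQ than in ELA, Car9 is high with AZA alone, Myl9 and Cnn2 fall to their lowest level with CHQ, and most demethylases change by less than 1, with Kdm3a and Hr rising by 1.69 and 1.66.

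Metal handling was read next, because CHQ carries a metal-binding group. Of 14 genes of iron uptake and storage, 2 were called higher and 0 lower, beside 14.8% and 11.9% over all genes that could be called, with a median of 0.11. Tfrc, the transferrin receptor, rose by 1.01 at its brightest probe, but the lowest of its 3 probes gave -0.03, and Ncoa4, the receptor that sends ferritin to lysosomes, rose by 1.08. Neither call was kept at the 75th percentile (0.88 and 0.80) or with spike-in scaling (0.74 and 0.71), and the latter turned the median of the list to -0.24. Fth1 and Ftl1, the ferritin subunits, differed by 0.36 and -0.14. The metallothioneins Mt1 and Mt2, which bind zinc and copper, differed by -0.28 and -0.41 and were bright on every array. Of 14 metallothionein and zinc transport genes, 2 were called, both lower, with a median of -0.10. Slc39a8, an importer of zinc and manganese, read 10.36 in ES cells, 11.54 in ELA, 7.23 with AZA and 7.75 with CHQ, so both treated arrays were low, and Slc30a1, a zinc exporter, fell by 1.24.

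Drug and stress response genes were read beside the same shares of 14.8% higher and 11.9% lower. Of 10 measured ABC efflux pumps, 5 were called higher and 0 lower, with a median of 1.95 (1.49 with the member dim in ELA at its bound). Abcb4, the neighbour of Abcb1b on the chromosome and similar to it in sequence, read 12.29, 9.42, 13.80 and 14.70 in ES cells, ELA, AZA and CHQ, and Abcb1a, of the same cluster, was 7.98-fold higher. Cross-hybridisation between these related genes was not tested. Abcg2, another broad exporter, differed by -0.63. Of 14 NRF2 targets, which answer to oxidants, 2 were called higher and 1 lower, with Nqo1 up by 2.49, Gclm down by 1.57 and Hmox1 at 0.17. The rise of Ephx1, an epoxide hydrolase, was 6.21 at one probe and 1.14 at the other. The aryl hydrocarbon receptor targets had 2 called higher and 0 lower of 6, Nqo1 and Tiparp, while Cyp1a1, the standard readout of that receptor, differed by 0.46 and was not called.

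The ATF4 targets of the amino acid response had 4 called higher and 1 lower of 17, beside the same 14.8% and 11.9%. Their median of 0.51 dropped to 0.05 with spike-in scaling. Atf3, a transcription factor induced by stress, read 8.62 in ES cells, 9.36 in ELA, 8.47 with AZA and 11.57 with CHQ, and was thus high on the CHQ array alone. Nupr1 rose by 2.09 and Cth, which makes cysteine, by 1.85, whereas Phgdh, the first enzyme of serine synthesis, fell by 2.18, and by 2.51 at its other probe. Asns, Trib3, Chac1 and Ddit3 differed by 0.48, 0.51, 0.22 and 0.71 and were not called. The unfolded protein response had 0 called higher and 2 lower of 11, with Hspa5, its main chaperone, at -0.03.

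Of 18 p53 targets, 13 were called higher and 0 lower, beside 14.8% and 11.9% of genes that could be called. The median was 1.46 (0.91 to 1.48 over all settings). Mdm2, the ubiquitin ligase that restrains p53, read 15.26 in ES cells, 14.46 in ELA, 16.53 with AZA and 17.19 with CHQ. Perp, a membrane protein of cell death and adhesion, read 14.01, 11.80, 13.81 and 15.32, and Fas, a death receptor, was dim in ELA and at least 20.7-fold higher with CHQ. For these genes CHQ was the highest of the 4 arrays. Plk2, Ccng1 and Btg2 rose by 3.20, 2.48 and 2.44. Cdkn1a, the inhibitor of cyclin-dependent kinases p21, was called at its brightest probe (11.42 in ELA and 12.92 with CHQ) but differed by 0.05 at the lowest of 3 probes, while Bax, Pmaip1 and Sesn1 differed by 0.29, 0.10 and -0.10. The AZA minus ELA median over the list was 1.04 and the CHQ minus AZA median 0.39. The 25 genes of replication and the cell cycle had 1 call, a fall of 1.71 for Ccne1 (cyclin E1), and a median of -0.22 that moved to -0.61 at the 75th percentile and -0.73 with spike-in scaling.

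Immediate early genes, the first genes that growth and stress signals induce, set the CHQ array apart from the AZA array on the same slide. Of 12 measured, 7 were called higher with CHQ and 0 lower, beside 14.8% and 11.9% of genes that could be called. CHQ minus ELA had a median of 1.09, AZA minus ELA of -0.32 and CHQ minus AZA of 1.27. Fos read 8.35 in ES cells, 10.42 in ELA, 11.18 with AZA and 12.84 with CHQ. Jun read 12.31, 13.96, 12.91 and 15.27, and Dusp1, a phosphatase of MAP kinases, 10.88, 11.79, 11.47 and 13.35. In all 3 genes CHQ was the highest array. Fosl1 rose by 2.64, whereas Fosb, Egr2 and Myc differed by 0.36, 0.82 and 0.28 and were not called. Each of the 12 rests on 1 probe. Genes of feedback on ERK signalling had 3 called higher (Phlda1, Spred1 and Etv5) and 1 lower (Dusp4) of 12, beside the same shares. The rise of Etv5 by 1.35 was not kept at the 75th percentile (0.70) or with spike-in scaling (0.59).

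Because many of these values rest on 1 probe, genes with several probes gave a check that lies within the same arrays and does not replace a replicate. Probes had to differ in position but could overlap. Over 4499 pairs with both probes bright, the CHQ minus ELA difference correlated at r = 0.729 across genes, and among 1093 pairs whose brighter probe was called the sign was shared in 88.5%. For 335 of these pairs the probes overlapped, and r was 0.965 there and 0.699 over the 4148 pairs that lay apart. The correlation was 0.671 where the second probe had a mean of 7.5 to 9 and 0.849 where it was above 13. Of 6114 callable genes with at least 2 measured probes, 356 (5.82%) were higher and 272 (4.45%) lower by at least 1 at every probe, and 315 and 247 of them had probes that did not overlap. Of these genes, 216 and 253 were read at every probe above background on both arrays, and the other 140 and 19 had a probe that was dim on 1 of them. Among the called genes with several probes, every probe had the same sign for 753 of 938 rises and 511 of 632 falls, and a probe moved by at least 1 in the opposite direction for 17 and 15.

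**Figure D3:**
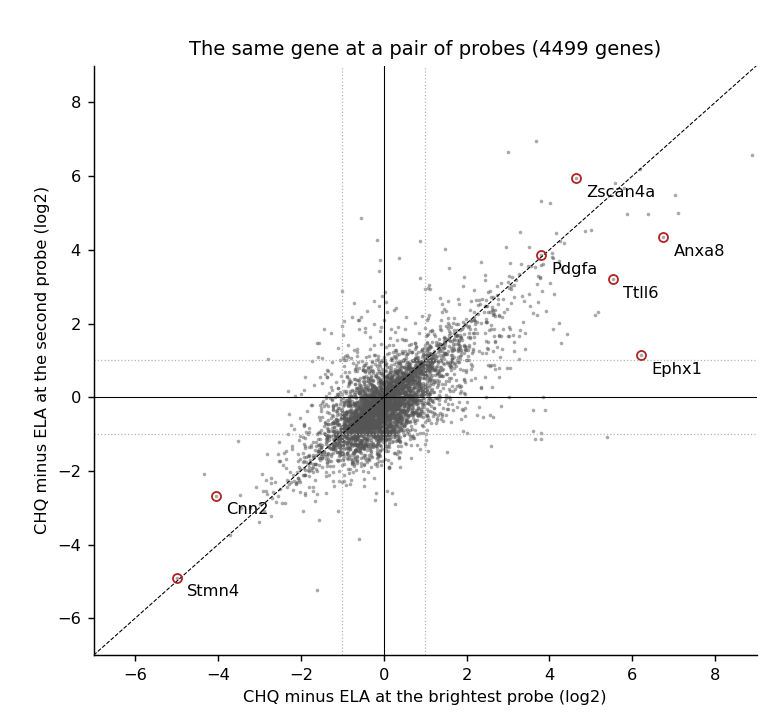
CHQ minus ELA difference (log2) at a gene's brightest probe (x axis) and at its second probe (y axis) for 4499 genes with both probes at a mean of at least 7.5; the dashed line marks equal values and the dotted lines a difference of 1. Stmn4 and Pdgfa lie on the line, Anxa8, Ttll6 and Cnn2 beside it, and Ephx1 rises by 6.21 at one probe and 1.14 at the other.

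The largest rises shared by every probe included secreted and membrane proteins. Pdgfa, a platelet-derived growth factor, read 13.90 in ES cells, 11.53 in ELA, 15.12 with AZA and 15.33 with CHQ, with differences of 3.80 and 3.86 at overlapping probes. Fgf18, a fibroblast growth factor, read 9.07, 8.501, 10.33 and 12.01, with 3.51 and 4.07, and was clearly highest with CHQ. Anxa8, a phospholipid-binding annexin, gave 4.34 and 6.75, Lgals4, a galectin of the gut lining, 3.21 to 3.85 at 3 probes, Slc12a8 3.54 and 3.66, Ms4a10 3.47 and 4.32, and Ttll6, a tubulin polyglutamylase, 5.52. The remaining 5 were Zscan4a (4.64), Zscan4c (3.69), Xlr3b (5.01), Dmrtc1c2 (4.25 and 4.26) and Rpl10l (3.69 and 4.22). The other probes of Ttll6, Zscan4a, Zscan4c and Xlr3b were dim in ELA, so that they passed through the CHQ array, and give bounds only. They were at least 7.99-fold higher for Ttll6, 43.9-fold for Zscan4a, 9.26-fold and 83.2-fold for Zscan4c and 23.1-fold for Xlr3b. Zscan4a, Zscan4c, Xlr3b, Dmrtc1c2 and Rpl10l belong to families of near-identical or closely similar copies, and which copy a probe reads was not tested. Of the 12 rises, Pdgfa, Fgf18 and Zscan4a were read by overlapping probes alone. Fgf18 was higher with CHQ than with AZA by 1.69 at its brightest probe, and the other 11 differed between these 2 arrays by 1.34 (Ttll6) or less.

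Falls shared by every probe were led by Stmn4, a neuronal regulator of microtubules, which read 11.47 in ES cells, 13.31 in ELA, 7.12 with AZA and 8.32 with CHQ and differed by -4.99 and -4.90. Rasgrp2, an activator of the small GTPase Rap1, read 14.50, 15.32, 14.03 and 11.61, with -3.71 and -3.75. Pttg1, the securin that holds sister chromatids together until anaphase, read 15.50, 15.70, 15.82 and 13.03, with -2.68 and -2.57. Stmn4 was low on both treated arrays. Rasgrp2 was lowest with CHQ and lower with AZA than in ELA by 1.30, while Pttg1 was low on the CHQ array alone, with an AZA minus ELA difference of 0.11. Cxcl12, a chemokine, fell at both probes by 3.22 and 2.99, Etv2, a factor of blood vessel fate, by 3.003 and 3.38, Sox11, a neural transcription factor, by 2.91 and 2.54, and Pdpn, podoplanin, by 2.70 and 2.74. Cnn2 gave -4.06 and -2.67, Ramp3 -2.80 and -2.62, Bmerb1 -2.87 and -2.45, Prss8 -3.08 and -2.44, and Pphln1 -2.87 and -2.38. The probes of Stmn4 and Ramp3 overlap, and those of the other 10 genes do not.

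**Figure D4:**
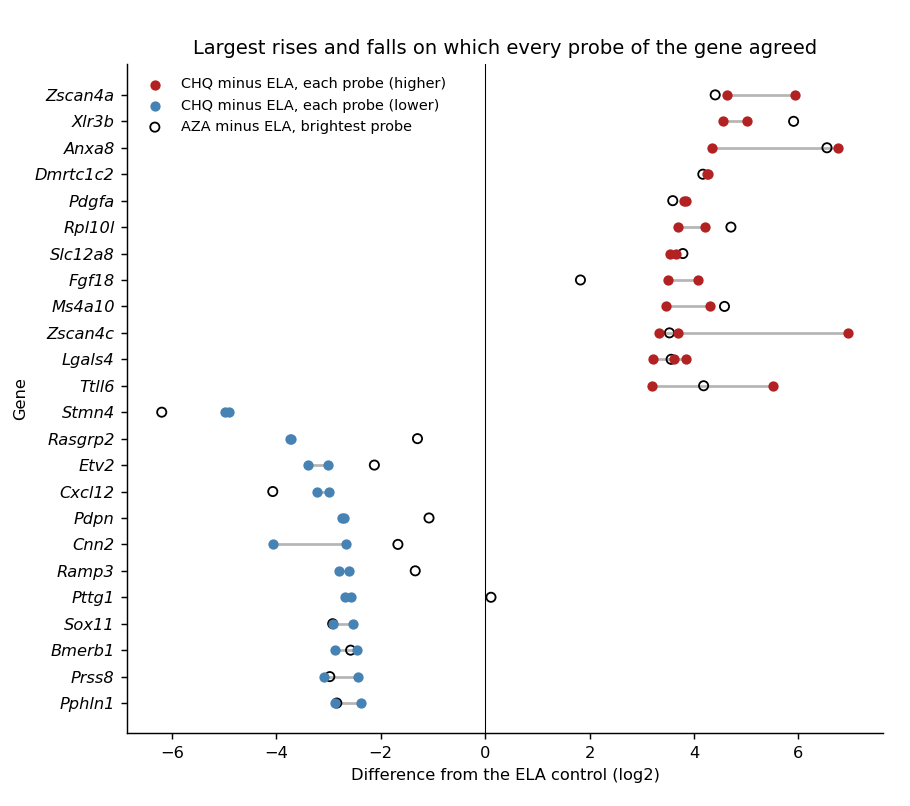
Difference from the ELA control (log2, x axis) for the 12 largest rises and 12 largest falls shared by every probe of the gene (y axis). Filled points are CHQ minus ELA at each probe, as measured also where the probe was dim in ELA, and open points AZA minus ELA at the brightest probe. Most open points lie near the filled ones, and those of Fgf18, Rasgrp2, Cnn2, Pdpn, Ramp3, Pttg1 and, by less, Etv2 lie closer to 0.

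The fall of Myl9 was shared by part of the contractile apparatus. Of 22 measured actin contractile genes, Myl9 included, 8 were called lower and 1 higher, beside 11.9% and 14.8% of genes that could be called. The median was -0.40. This was under the size of 0.5 set for giving a list a direction, and the median ran from -0.86 with spike-in scaling to -0.27 without the filter on dim probes. Cnn2, calponin 2, read 13.33 in ES cells, 12.86 in ELA, 11.19 with AZA and 8.81 with CHQ. Acta2, smooth muscle actin, read 12.37, 10.83, 6.97 and 6.88, and Tagln, transgelin, 15.47, 13.69, 11.12 and 10.40. Both treated arrays were low for these 3 genes, and CHQ minus AZA was -2.39 for Cnn2, -0.72 for Tagln and -0.09 for Acta2. Cnn1 fell by 2.34, the tropomyosins Tpm2 and Tpm1 by 2.27 and 1.39, and Srf, the serum response factor, by 1.71. Cald1, caldesmon, rose by 1.89. The broadly used members Myl6, Myl12a, Myl12b, Actn1, Vcl and Tpm4 differed by -0.27 to 0.38 and were not called. With bulk RNA, fewer cells of a type and less RNA per cell cannot be told apart.

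Srf acts through the CArG box, a motif of 10 bases with an AT-rich centre between CC and GG. The promoters of the contractile genes were searched for it after their values had been seen, in the same RefSeq windows. It was present in 5 of the 19 contractile genes that had a promoter in the table and in 3 of the 7 called lower with a promoter, beside 1.68% of genes that could be called, 2.86% of genes called lower, 1.55% of genes called higher and 1.63% of all promoters. Matches in called genes are shown with the box in capitals, 5′ to 3′ along the gene's strand in GRCm38.p6.
Myl9 (chr2:156775294-156775321, plus strand): aagcagaggCCTAATAAGGccgggctgg
Cnn2 (chr10:79988535-79988562, plus strand): gcttccacgCCTTATAAGGacatttgct
Srf (chr17:46556226-46556253, minus strand): tggggctcgCCATATAAGGagcggcctc
Srf (chr17:46556206-46556233, minus strand): gcggcctcgCCATAAAAGGaaacattgt
The other 2 matches belong to Vcl and Myl6, which differed by -0.04 and 0.05. A box was thus present both in genes that fell and in genes that were not called.

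Of 15 genes of the neuronal cytoskeleton, 8 were called lower and 0 higher, beside 11.9% and 14.8% of genes that could be called. The median was -1.22 (-2.08 to -1.20 over all settings). Tubb3, neuronal tubulin, read 12.62 in ES cells, 13.30 in ELA, 10.65 with AZA and 10.02 with CHQ. Stmn3 fell by 4.60, Gap43, a protein of growth cones, by 2.68, Ina by 2.42 and Stmn2 by 2.07, while Stmn1, Map2 and Mapt differed by -0.24, 0.44 and 0.15. Early neural genes had 5 called lower and 0 higher of 12, beside the same shares, with a median of -1.06. Hes5, a Notch target of neural progenitors, read 8.74, 10.89, 9.03 and 7.67, and Fabp7, a fatty acid binding protein of radial glia, 6.76, 9.70, 6.63 and 6.91. Both were high in the ELA control alone, and Hes5 was lowest with CHQ. Nes, nestin, fell by 1.24 and Sox1 differed by -0.40. Zic1 fell by 1.28 at the brightest probe and rose by 1.75 at the other.

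Of 15 genes of naive pluripotency, 12 were called higher and 1 lower with CHQ, beside 14.8% and 11.9% of genes that could be called. The median was 1.95. Klf4 read 12.54 in ES cells, 9.50 in ELA, 13.58 with AZA and 12.998 with CHQ, an 11.3-fold rise over ELA, and Zfp42 (Rex1), a marker of naive cells, read 15.80, 11.99, 15.72 and 15.05. Tbx3, Nr0b1 and Esrrb, further factors of the naive network, rose by 3.57, 3.35 and 1.89. Of 12 genes of primed pluripotency, 2 were called higher and 6 lower, beside the same shares, with a median of -0.97. Within the slide the naive genes stood lower with CHQ than with AZA, with a median difference of -1.12. Tcl1, a coactivator of the kinase AKT, read 13.07 in ES cells, 9.40 in ELA, 14.37 with AZA and 10.54 with CHQ, and Prdm14 was at least 3.07-fold higher with CHQ but far below ES cells, at 8.36 against 10.56. Nanog read 15.03, 12.53, 15.39 and 12.54, so that the CHQ array equalled the ELA control, and its second probe gave -1.01. Dppa3, a maternal factor that protects methylation marks in the zygote, read 12.37, 10.43, 9.97 and 6.995 and was lowest with CHQ. Klf5 and Fgf4 had their highest level of the 4 arrays with CHQ, at 13.62 and 16.32.

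Of 8 genes shared by both states, 0 were called higher and 2 lower, beside 14.8% and 11.9% of genes that could be called. Lin28a, a regulator of let-7 microRNAs, fell by 2.29 and Sall4 by 1.75. Pou5f1 and Sox2, core factors of pluripotency, differed by -0.90 and 0.64 and were not called. Among primed genes, Sox3 fell by 2.13, Sall2 by 1.39, Zic2 by 1.28 and Fgf5 by 1.15, and each lay below ELA and above AZA on the CHQ array. Nodal, which rose by 4.58, and Lef1, a partner of beta-catenin, ran against the list. Lef1 read 12.52, 13.73, 13.55 and 15.54, the highest with CHQ, with 1.54 at its second probe. Otx2, Pou3f1 and Eomes differed by -0.31, 0.29 and -0.89.

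Signals around this transition were read by pathway, beside the shares of 14.8% higher and 11.9% lower over all genes that could be called. Nodal, a ligand of the TGF-beta family that primes the epiblast, read 13.04 in ES cells, 9.32 in ELA, 14.17 with AZA and 13.90 with CHQ, and its feedback inhibitors Lefty1 and Lefty2 rose by 3.69 and 2.96. In the Nodal list 5 genes were called higher and 1 lower of 11, with a median of 0.88 (0.45 over genes well above background on both arrays), and the fall was that of the co-receptor Cfc1 (1.98). Of the LIF and STAT3 genes, 3 of 10 were called, all higher, with Socs3 up by 2.68, Lifr by 2.44 and Stat3 by 1.74. The other probes gave 0.56 and 0.61 for Lifr and 0.61 for Stat3. Of 9 BMP and Id genes, 2 were called higher (Smad7, and Id4, which was dim in ELA and entered through the CHQ array) and 2 lower, Id3 by 3.33 and Id1 by 1.41. Id3 read 13.44, 13.69, 11.36 and 10.36, the lowest with CHQ. Wnt targets had 3 called higher and 0 lower of 12, among them Lgr5, which read 6.56, 7.54, 6.28 and 8.79. Sp5, another of the 3, was dim in ELA and entered through the CHQ array. With spike-in scaling Lgr5 differed by 0.89, which ends its call, and the median of the list turned from 0.27 to -0.13. Axin2, a general Wnt target, differed by 0.17.

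Among DNA methyltransferase genes 1 was called higher and 2 lower of 6, beside 14.8% and 11.9% of genes that could be called. Dnmt3l, the cofactor of de novo methylation, read 15.96 in ES cells, 13.22 in ELA, 16.33 with AZA and 15.38 with CHQ, and Dnmt3b and Dnmt3a fell by 1.05 and 1.21. Germline genes, many of which are silenced by promoter methylation, had 8 called higher and 1 lower of 17, beside the same shares. Their median was 1.03. Of the 8, 2 were dim in ELA and entered through the CHQ array, and the median was 0.93 over genes well above background on both arrays. Dazl, an RNA-binding protein of germ cells, read 7.75, 7.40, 10.53 and 9.30. Hormad1 was at least 11.3-fold higher with CHQ at its brightest probe, while Sycp3 fell by 1.39. The other probe of Hormad1, dim in ELA as well, read 7.51 with CHQ. The lowest signal well above background in ELA was 6.74, so that this probe gives a bound only. Of 13 measured genes of the 2-cell stage, 10 could be called, and 9 were called higher and 0 lower, beside the same shares. The median was 1.98, and 1.58 when members dim on 1 array were set at their bounds. For 10 of the 13 the ELA control array was not well above background. These entered through the CHQ array, so that the filter favoured rises among them. Zscan4f was at least 175.7-fold higher with CHQ. It read 10.30 in ES cells, 6.17 in ELA, 14.34 with AZA and 14.20 with CHQ.

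Markers of other cell types were called in both directions, beside 14.8% higher and 11.9% lower over all genes that could be called. In primitive endoderm 4 were called higher and 1 lower of 13 measured, with Gata6, Sox17 and Hnf4a dim in ELA and at least 8.88-fold, 6.70-fold and 5.18-fold higher. They entered through the CHQ array, so that the filter favoured rises among them, and the second probe of Sox17, also dim in ELA, gave 1.38. The median of the list was 0.81, and 0.34 over genes well above background on both arrays. Gata4, Lama1 and Sparc differed by 0.27, -0.41 and 0.20. In trophoblast 3 were called higher and 2 lower of 10, of which 7 could be called. Tfap2c, a factor of trophoblast and germ cells, read 12.65, 9.79, 11.90 and 13.23, whereas the keratins Krt8 and Krt18 fell by 1.20 and 2.23 and Elf5 stayed near background. In mesendoderm 2 were called higher and 1 lower of 11, of which 5 could be called. T, its standard marker, differed by -0.45. Both genes called higher were dim in ELA and entered through the CHQ array, and the median of 0.21 became -0.45 over genes well above background on both arrays. Fibroblast markers had 1 called higher and 3 lower of 6, pigment and neural crest genes 2 higher and 1 lower of 8, and interferon response genes 3 higher and 1 lower of 14. In the same order, 5, 5 and 8 of these could be called. The part of these cell types in the results above was not tested.

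Of 16 genes of epithelial and mesenchymal adhesion, 4 were called higher and 3 lower, beside 14.8% and 11.9% of genes that could be called. Vim, vimentin, rose by 2.02 and Snai2 by 1.55, while Cldn7, a tight junction protein, fell by 2.42 and Snai1 by 1.04, and Cdh1 and Cdh2 differed by -0.44 and 0.07. Of 11 annexins, 4 were called higher and 1 lower, beside the same shares. Anxa1 read 12.90 in ES cells, 9.48 in ELA, 11.30 with AZA and 12.86 with CHQ, with 2.60 at its second probe. Carbonic anhydrases split, with Car12 higher and 6 lower of 14, of which 10 could be called, beside the same shares. The falls were led by Car14 at -4.35. Sterol synthesis had 0 called higher and 4 lower of 23, beside 14.8% and 11.9% over all genes that could be called. Its median was -0.51 for CHQ and -1.34 for AZA against ELA, and 0.96 for CHQ minus AZA.

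**Figure D5:**
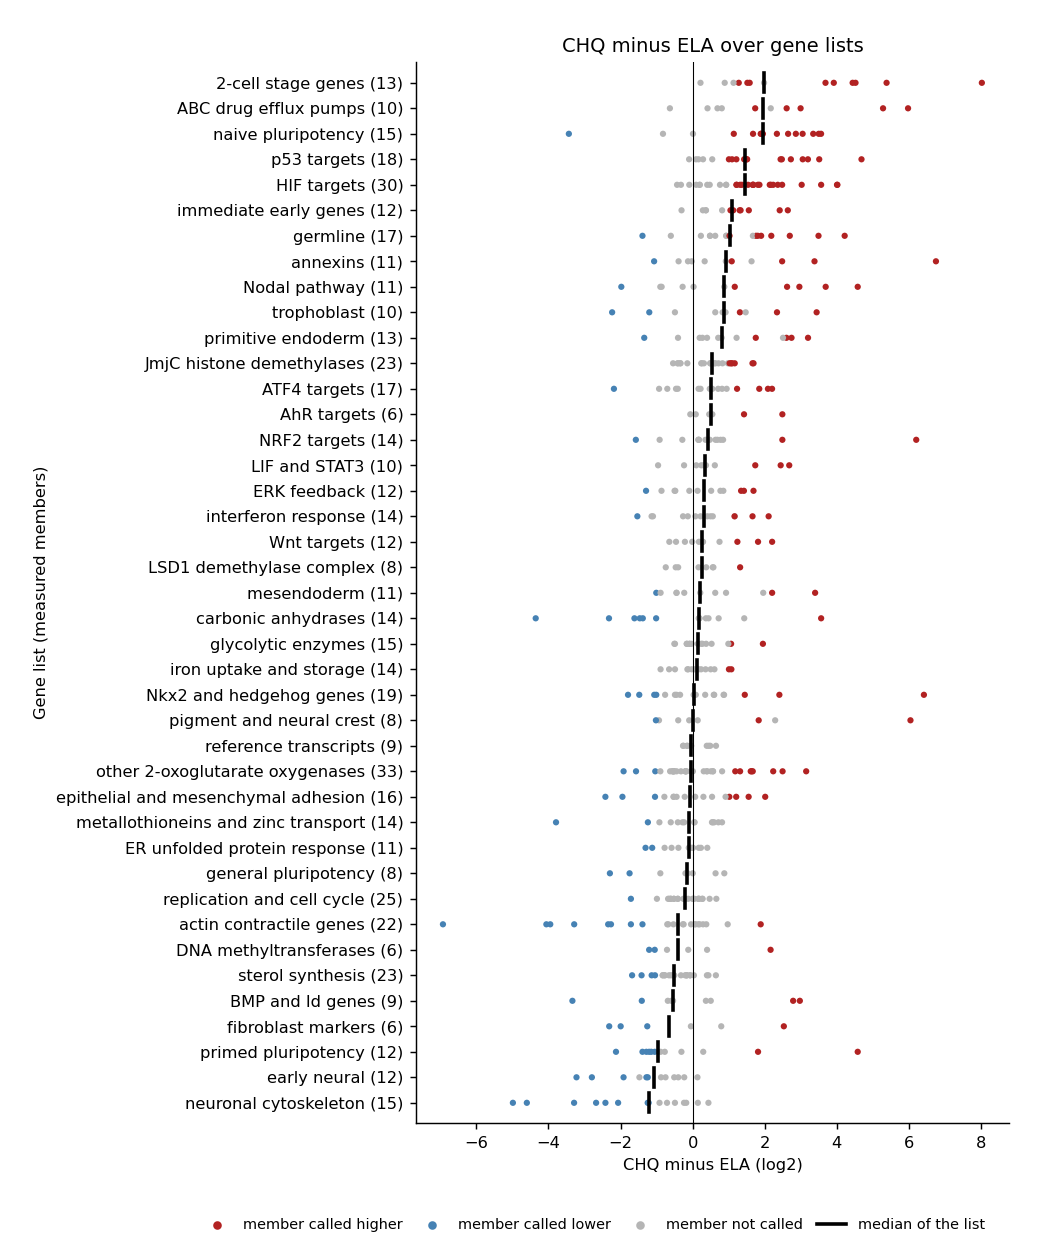
CHQ minus ELA difference (log2, x axis) for the measured members of 41 gene lists (y axis, number of measured members in brackets), ordered by the median (black bar). Red, blue and grey points are members called higher, called lower or not called. HIF and p53 targets, naive pluripotency genes and efflux pumps lie mostly to the right, neuronal and early neural genes to the left, and reference transcripts and glycolytic enzymes around 0.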

How the data were processed

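RNA was labelled with Cy3 and hybridised to Agilent single-colour mouse arrays with probes of 60 bases. The deposited scanner files hold spot intensity that the authors read with Feature Extraction (10.7.3.1 per the file headers, 9.1 in the submitters' processing notes), not normalised between arrays. The authors also deposited a table of log2 values, made with limma by background correction and quantile normalisation, which served here as an alternative. Its CHQ minus ELA differences correlated at r = 0.990 with those computed here without an offset.

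Mean spot intensity was corrected with normexp on the local background median (offset 50) and quantile-normalised over the 4 arrays with limma 3.58.1 in R 4.3.3. Outlier spots were left out and spots of a probe averaged on the log2 scale, which left out 559 of 55681 probes. Names came from a RefSeq table (assembly GRCm38.p6) through accession (26582 probes), symbol (2602) or synonym (492), and 26005 probes kept the array's name. A gene is represented by the probe with the highest mean over 4 arrays. Differences are CHQ minus ELA on the log2 scale, and ratios are linear. A gene dim on 1 array is given as an "at least" ratio against the higher of its own signal and the lowest signal well above background there.

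With 1 array per group nothing was tested, leaving out a replicate was impossible, and precision is limited by the number of arrays. Groups came from the sample labels. A list was given a direction where its median reached 0.5. The text names the comparison markers, the 12 largest rises and falls at every probe, genes from among the 3 largest called per list and direction, the JmjC family and the study's pluripotency markers. Values of some members counted in the lists are not reported here. Other list members were chosen after their values were seen, and the members and lists were chosen with earlier results of these data known. Scripts were tested on simulated data, with Python 3.11.15, pandas 2.3.3 and numpy 2.4.6. The knockdown of SmarcA4 was not analysed here. Whether a probe lies in an exon or UTR was not looked up, since no annotation of mm9 was used.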

Additional observations from a re-analysis of the deposited data

How the results depend on the processing

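No paired analysis was possible because each group has 1 array, and for the same reason no replicate could be left out. The 75th percentile gave 516 genes lower at every probe, and spike-in scaling gave 4203 genes called lower, 207 higher at every probe and 639 lower at every probe. With a threshold of 2 the counts were 1058 higher and 338 lower, of which 92 and 36 at every probe. Under the deposited value table, the count was 2414 higher and 2407 lower. Of 157 named genes that were called, 144 had a value in each of 8 settings and 13 had none in at least 1 of them. In the settings that gave a value, 156 kept their sign and 140 a difference of at least 1, and 12 of the other 17 fell under 1 with the 75th percentile or spike-in scaling. Phf8 reversed to -0.029 with the mean over all probes. Of 20 lists with a direction, 19 kept their sign, 12 of them with a median of at least 0.5 in size throughout, and the fibroblast markers reversed to 0.046 without the filter on dim probes. Of 21 lists without a direction, 7 reached 0.5 in size under both scalings, of which mesendoderm did so in opposite directions (1.02 at the 75th percentile and -0.55 with spike-in scaling). Signal over background limits the genes that were dim in the ELA control, whose background was higher than on the CHQ array.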

Other observations

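Genes for which the CHQ array stood apart from all 3 other arrays were listed after their values had been seen. Capn13, a calpain protease, read 6.16 in ES cells, 6.38 in ELA, 6.15 with AZA and 12.92 with CHQ, and was at least 72.3-fold above ELA through 1 probe. Ltf, the iron-binding protein lactoferrin, read 6.82, 6.47, 7.36 and 11.25 (at least 22.8-fold). Pla2g4a, the phospholipase that releases arachidonic acid, read 9.78, 9.07, 9.07 and 12.69, and Kctd12 read 7.55, 8.23, 8.08 and 11.18. In these genes the CHQ array alone was high. Reg1 was at least 10.96-fold and Aldh1a1, an enzyme of retinoic acid synthesis, at least 9.88-fold above ELA. On the low side, Dppa3, Myl9, Pttg1, Rasgrp2 and Cnn2 were joined by Rcn3 at 10.66 against 12.65 to 13.36 on the other arrays, Wfdc2 at 10.48 against 12.46 to 13.40, and Platr5, a noncoding RNA of pluripotent cells, at 6.88 against 9.68 to 10.09.

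The difference varied with the base composition of the probe. Over 5 equal bins of callable genes by probe GC content, the median CHQ minus ELA difference was 0.08, 0.08, -0.07, -0.13 and -0.34 from the lowest to the highest GC, and the share called higher fell from 17.3% to 9.35% while the share called lower was 9.11% in the lowest bin and 15.6% in the highest. The part of base composition in the results for single genes was not tested. By chromosome, the medians of the autosomes and X lay between -0.18 and -0.01. The 25 callable genes of chromosome Y had a median of 0.98. Of these, 11 were called higher and 1 lower, beside 14.8% and 11.9% over all genes that could be called. Their AZA minus ELA median was 1.01.

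The largest fall of any gene rested on the single probe of 4933407C09Rik, which read 7.19 in ES cells, 18.25 in ELA, 6.90 with AZA and 6.29 with CHQ, bright on the ELA control array alone.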
